A study of Mus musculus with 16 samples.

Results

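The class I odorant receptor genes of mouse chromosome 7 were followed across 16 Clariom S arrays of sorted cells of the olfactory mucosa. They were taken as the probesets on chromosome 7 whose annotated symbol is Olfr543 to Olfr692, Olfr33 or Olfr64 to Olfr69, without pseudogenes. This gave 119 receptors, out of 1081 odorant receptor probesets and 22206 gene probesets on the array. Another 112 receptor probesets lie on chromosome 7 and are not of this kind.

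The cells came from S100a5-tauGFP mice, in which green fluorescent protein reports S100a5, a calcium-binding protein gene of olfactory sensory neurons whose expression depends on their activity. All 24 mice carried this reporter, were of both sexes and 7 to 12 weeks old, and stayed singly in chambers flushed with clean air for 40 h. After 26 h they received 10 s pulses every 20 min of an odorant or of filtered air, the vehicle. Cells pooled from 3 mice were sorted, which gave 4 arrays of GFP+ cells and 4 of GFP- cells from odorant-exposed mice, and the same from vehicle mice. The sample labels name bourgeonal as the odorant and the series title names indole, so it is called the odorant here. GFP+ and GFP- cells of the same treatment and number shared a pool, so that there were 8 pools, and a pool hides differences among its mice.

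Odorant receptors are G protein-coupled receptors, and a mature olfactory sensory neuron normally makes a single one of them from a single allele. Class I receptors, also called fish-like receptors, are the older branch of the family in vertebrates. In the mouse they lie in 1 large cluster on chromosome 7, interrupted by the beta-globin genes, and their neurons are found mainly in the dorsal part of the mucosa. Several of them respond to carboxylic acids and other water-soluble odorants. Because each receptor marks its own neurons, its transcript level in a sorted fraction follows both how many of its neurons are there and how much of the transcript each holds. On these arrays fewer cells and less RNA per cell cannot be told apart.

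The stretches before the annotated starts of 6 receptors are shown because these are the ones, among the 10 higher and 10 lower receptors named by rule for their difference between the fractions, whose listed start is not an ATG. Each is the 250 bases before the RefSeq start in GRCm38.p6, written 5′ to 3′ on the strand of the gene. Capitals mark TATAAA, the core of a TATA box, and TAATTA or TAATTG, core sites of homeodomain proteins such as Lhx2 and Emx2, on either strand. Olfr613, Olfr556, Olfr550 and Olfr651 were higher in GFP+ cells, and Olfr629 and Olfr69 were lower. The stretch of Olfr550 holds neither motif (0 matches).
Olfr613 (chr7:103550118-103550367, + strand): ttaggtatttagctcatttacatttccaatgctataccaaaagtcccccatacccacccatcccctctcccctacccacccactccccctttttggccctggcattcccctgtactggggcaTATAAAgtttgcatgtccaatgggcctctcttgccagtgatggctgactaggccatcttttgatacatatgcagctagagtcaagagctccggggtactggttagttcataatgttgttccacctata
Olfr556 (chr7:102669651-102669900, + strand): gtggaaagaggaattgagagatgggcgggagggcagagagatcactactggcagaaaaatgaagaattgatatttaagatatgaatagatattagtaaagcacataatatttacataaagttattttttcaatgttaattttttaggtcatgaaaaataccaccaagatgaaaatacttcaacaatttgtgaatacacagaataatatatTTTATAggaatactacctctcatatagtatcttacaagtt
Olfr550 (chr7:102578219-102578468, + strand): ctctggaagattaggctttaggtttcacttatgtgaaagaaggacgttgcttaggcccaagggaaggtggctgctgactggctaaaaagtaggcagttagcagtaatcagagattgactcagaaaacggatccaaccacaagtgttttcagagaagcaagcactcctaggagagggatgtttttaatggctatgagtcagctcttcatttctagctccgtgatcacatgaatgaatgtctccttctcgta
Olfr651 (chr7:104552634-104552883, + strand): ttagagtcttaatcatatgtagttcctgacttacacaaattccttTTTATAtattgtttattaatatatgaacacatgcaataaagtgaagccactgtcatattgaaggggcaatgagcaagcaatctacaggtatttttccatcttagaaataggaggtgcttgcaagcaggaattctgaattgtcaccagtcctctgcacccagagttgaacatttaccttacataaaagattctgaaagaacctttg
Olfr629 (chr7:103741323-103741572, - strand): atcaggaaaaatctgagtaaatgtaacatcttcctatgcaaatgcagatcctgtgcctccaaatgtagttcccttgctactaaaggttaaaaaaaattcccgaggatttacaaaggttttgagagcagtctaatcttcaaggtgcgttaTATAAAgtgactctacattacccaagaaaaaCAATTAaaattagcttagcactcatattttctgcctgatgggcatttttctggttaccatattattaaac
Olfr69 (chr7:103771595-103771844, - strand): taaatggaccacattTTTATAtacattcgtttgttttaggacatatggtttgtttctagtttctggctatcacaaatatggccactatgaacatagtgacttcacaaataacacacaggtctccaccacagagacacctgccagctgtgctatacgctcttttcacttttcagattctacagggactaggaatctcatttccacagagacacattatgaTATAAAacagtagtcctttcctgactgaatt

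The motifs were counted in the receptors of both directions. Windows of 300 bases, 250 before and 50 after the start, were listed for 103 of the 119 receptors, and for 76 of them the annotated start is the ATG, so that the start of transcription is not given for them. TATAAA was in 12 of 24 windows (50%) of receptors higher in GFP+ cells in both treatments and in 6 of 12 (50%) of those lower in both. It was in 34.3% of the other class I windows and 13.6% of all 32851 windows in the table. A TAATTA or TAATTG site was in 7 of 24 windows (29.2%) of the higher receptors, 5 of 12 (41.7%) of the lower ones, 32.8% of the rest and 12.4% of all windows. Both motifs were counted on both strands, and a window can hold both. In Olfr69 a TATAAA match starts 31 bases before the annotated start, and in Olfr556 a match on the other strand starts 40 bases before it. A match is a description of the letters and not evidence of a site.

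The arrays carried the transcripts of olfactory neurons in every group. Omp, which marks mature neurons of the olfactory mucosa, read 18.69 ± 0.051 log2 signal in GFP+ and 18.59 ± 0.069 in GFP- cells of odorant-exposed mice, and 18.67 ± 0.011 in GFP+ and 18.63 ± 0.072 in GFP- cells of vehicle mice (SD, n = 4 each). S100a5 was higher in GFP+ cells by 1.14 (SE 0.20, limma adjusted p = 0.00247) with odorant and by 0.93 (SE 0.16, limma adjusted p = 0.00236) with vehicle. Kirrel2, chosen with Omp and S100a5 as a check of the sort and the sample, was called higher in GFP+ cells with vehicle alone. It differed by 1.60 (SE 0.17, limma adjusted p = 0.000102) with vehicle and by 1.06 (SE 0.42, limma adjusted p = 0.156) with odorant. The dorsal zone genes Nqo1 and Acsm4 were above background on all arrays, and limma called neither of them between the fractions in either treatment. Arrays of GFP+ cells had medians of 6.29 to 6.38, against 6.64 to 6.76 for those of GFP- cells, and 46.7% to 50.9% of gene probesets exceeded the background of their array. That background, the 95th percentile of 23 control probesets that match no mouse sequence, lay at 6.57 to 6.87.

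Of the 119 receptors, 53 were above background on all 16 arrays, 46 on some and 20 on none. An array showed 79 to 84 of them above background in GFP+ cells of odorant-exposed mice, 72 to 88 in their GFP- cells, 85 to 88 in GFP+ cells of vehicle mice and 74 to 84 in their GFP- cells. The 20 receptors never above background included Olfr543, Olfr574, Olfr619, Olfr663 and Olfr688, and a difference in one of them is a difference between signals near the floor.

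The first question was which class I receptors differed between GFP+ and GFP- cells of the same mice. In odorant-exposed mice limma called 38 receptors higher in GFP+ cells and 18 lower, at an adjusted p under 0.05 over all 22206 gene probesets. Of all gene probesets, 3.57% were called higher and 7.84% lower in that comparison. In vehicle mice, which share no array and no pool with the odorant-exposed mice, 38 were called higher and 20 lower, against 7.76% and 9.97% of all gene probesets. At an unadjusted p under 0.05 there were 75 receptors with odorant, against 22.2% of all gene probesets, and 80 with vehicle, against 30.7%. The median difference of the 119 receptors was 0.44 with odorant and 0.34 with vehicle, and that of all gene probesets was 0.10 and 0.08. Their differences spanned -7.50 to 5.85 with odorant and -7.00 to 5.83 with vehicle, so that the receptors spread to both sides rather than moving as a block.

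The split between higher and lower calls depended on the scaling of the arrays. Subtracting each array's median, which moved the median of all genes to 0.42 with odorant and 0.45 with vehicle, gave 60 higher and 19 lower calls with odorant and 60 higher and 18 lower with vehicle. Higher calls were then 75.9% and 76.9% of the calls, against 67.9% and 65.5% without it. Of the 38 higher calls in each treatment, 6 were of receptors at background in both fractions and 12 of receptors at background in 1 fraction. Of the 18 lower calls with odorant, 1 was of a receptor at background in both fractions and 9 at background in 1 fraction, and of the 20 with vehicle, 0 and 8.

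**Figure D1:**
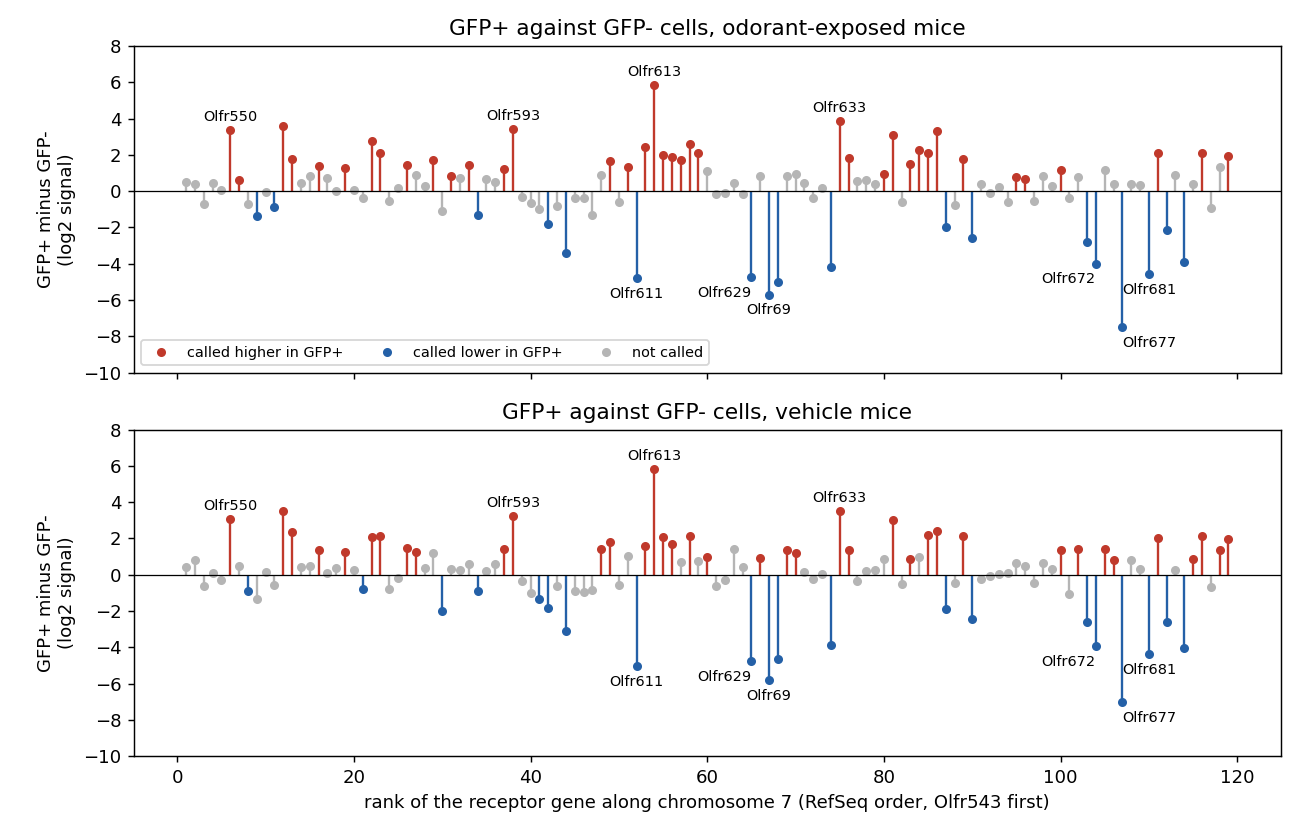
Difference in log2 signal between GFP+ and GFP- cells for the 119 class I receptors in their order along chromosome 7, in odorant-exposed mice (top) and vehicle mice (bottom), with 4 arrays in each fraction. Differences are of the signals as deposited, also where a fraction was at background. Red and blue points were called higher or lower in GFP+ cells by limma and grey points were not called; Olfr613 stands highest at 5.85 and 5.83, and Olfr677 lowest at -7.50 and -7.00.

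Many of the calls were shared by the pools of both treatments. Limma called 27 receptors higher in GFP+ cells with odorant and with vehicle (2.46% of all gene probesets) and 16 lower in both (6.89%), and 0 were called in opposite directions. These 43 shared calls were 76.8% of the 56 calls with odorant and 74.1% of the 58 calls with vehicle. Over all gene probesets the shares were 81.9% and 52.8%, and over the other receptors of chromosome 7 they were 97.1% and 93%. In the 8 fits that left out 1 replicate each, 35 of the 43 were called in both treatments every time, and the fits lost 2 to 5 of them. Olfr592 was lost in 6 of these fits, Olfr586 in 5, Olfr655 in 4, Olfr615 and Olfr646 in 3 each, and Olfr559, Olfr566 and Olfr668 in 2 each. With array medians subtracted, 51 were higher and 15 lower in both. A further 13 receptors were called with odorant alone, 11 higher and 2 lower, against 1.11% and 0.946% of all gene probesets. Of these, 5 of the higher and 1 of the lower were at background on all 16 arrays. With vehicle alone 15 were called, 11 higher and 4 lower, against 5.3% and 3.07%. Here 3 of the higher and 0 of the lower were at background on all 16 arrays. All receptors called in 1 treatment alone had a difference of the same sign in the other treatment. The difference between the treatments was tested by the interaction described further on. The remaining 48 receptors were called in neither, and 24 of them were above background on all 16 arrays.

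All 27 receptors of the higher set were higher in GFP+ cells in 8 of 8 pools, and all 16 of the lower set were lower in 8 of 8. The calls were made on these same pools, so that this agreement was largely set by the selection. For 23 receptors each of the 8 GFP+ arrays lay above each of the 8 GFP- arrays, against 2.83% of all gene probesets. For 17 each GFP+ array lay below each GFP- array, against 6.36%. Of the 27 higher receptors, 23 were in the first of these groups, and the 4 whose arrays overlapped were Olfr559, Olfr592, Olfr615 and Olfr635. All 16 lower receptors were in the second group, and its other member was Olfr645, which was at background on all arrays.

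**Figure D2:**
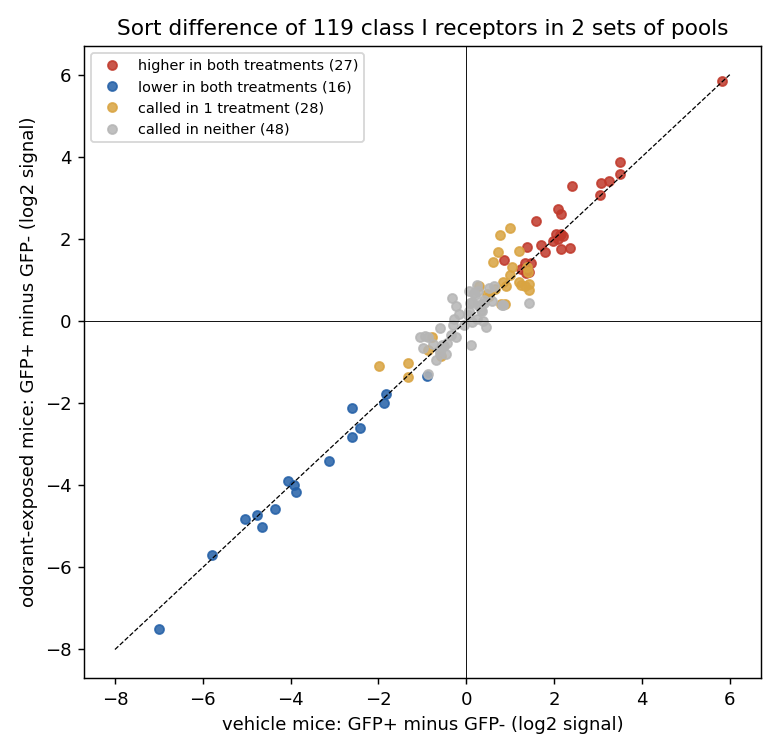
Difference in log2 signal between GFP+ and GFP- cells in odorant-exposed mice (vertical axis) against vehicle mice (horizontal axis) for the 119 class I receptors, each point a receptor and the dashed line equality. The 27 receptors higher in both and the 16 lower in both lie along the line, and 112 of 119 receptors have the same sign in both. The sign was also the same for 899 of 962 other receptors and for 16203 of all 22206 gene probesets.

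Olfr613 was higher in GFP+ cells and at background in GFP- cells. It read 10.47, 9.76, 9.98 and 10.66 log2 signal in GFP+ cells of odorant-exposed mice, against 4.87, 4.03, 4.15 and 4.42 in their GFP- cells. In vehicle mice it read 9.18, 10.53, 10.05 and 11.52 in GFP+ cells, against 4.50, 4.11, 4.33 and 5.02 in GFP- cells. Every GFP+ array was above background and no GFP- array was (0 of 8), and the fractions did not overlap. Taking the background as the level in GFP- cells, Olfr613 was at least 11.9-fold higher with odorant (difference 5.85, SE 0.24, limma adjusted p = 9.62e-08) and at least 12.5-fold higher with vehicle (5.83, SE 0.42, limma adjusted p = 5.91e-06).

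Olfr593, Olfr550 and Olfr689 were measured above background in both fractions, so that their folds are not bounds. Olfr593 read 10.69, 10.75, 11.07 and 10.87 in GFP+ and 7.44, 7.44, 7.79 and 7.11 in GFP- cells of odorant-exposed mice, and 11.09, 10.48, 10.96 and 10.72 in GFP+ and 7.72, 8.06, 7.17 and 7.26 in GFP- cells of vehicle mice. Its lowest GFP+ array stood more than 2 log2 units over its highest GFP- array. It was 10.6-fold higher in GFP+ cells with odorant (difference 3.40, SE 0.17, limma adjusted p = 2.9e-07) and 9.59-fold higher with vehicle (3.26, SE 0.22, limma adjusted p = 4.17e-06). Olfr550 read 11.42 to 12.08 in GFP+ and 7.83 to 8.90 in GFP- cells with odorant, and 10.78 to 12.52 in GFP+ and 8.13 to 9.28 in GFP- cells with vehicle, folds of 10.2 and 8.41. Olfr689 read 9.68 to 10.44 in GFP+ and 7.69 to 8.30 in GFP- cells with odorant, and 9.80 to 10.48 in GFP+ and 7.68 to 8.15 in GFP- cells with vehicle, folds of 4.26 and 4.4. For these 3 receptors too, the GFP+ and GFP- arrays did not overlap.

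Olfr556, Olfr633 and Olfr651 were close to background in GFP- cells. Olfr556 read 9.49, 8.84, 10.05 and 10.03 in GFP+ and 5.51, 5.42, 6.84 and 6.28 in GFP- cells with odorant, and 9.96, 9.06, 9.38 and 11.26 in GFP+ and 6.09, 6.15, 6.83 and 6.54 in GFP- cells with vehicle. Only 1 GFP- array of each treatment exceeded background, and Olfr556 was at least 7.51-fold higher with odorant and at least 9.13-fold higher with vehicle. Olfr633 read 9.43 to 10.56 in GFP+ and 3.94 to 7.50 in GFP- cells with odorant, and 9.11 to 10.19 in GFP+ and 4.81 to 7.04 in GFP- cells with vehicle, and was at least 7.69-fold and 6.8-fold higher. Olfr651 was at least 6.25-fold higher with odorant and 5.27-fold higher with vehicle.

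The other strongly higher receptors were Olfr644, Olfr618 and Olfr571. Olfr644 averaged 10.13 ± 0.32 in GFP+ and 7.06 ± 1.2 in GFP- cells of odorant-exposed mice, and 9.77 ± 0.54 in GFP+ and 6.74 ± 0.32 in GFP- cells with vehicle (SD, n = 4 each). Olfr618 was 6.06-fold higher with odorant and 4.44-fold with vehicle, and Olfr571 was 4.35-fold and 4.46-fold higher. The 17 other receptors of the higher set had differences of 1.17 to 2.74 with odorant and 0.85 to 2.36 with vehicle. Among them Olfr570 had the largest difference with odorant and Olfr646 the smallest with vehicle, and Olfr575 was at background in both fractions of both treatments.

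Olfr677 was at background in GFP+ cells and high in GFP- cells. It read 4.78, 4.70, 5.18 and 4.18 in GFP+ cells of odorant-exposed mice, against 11.81, 12.91, 12.14 and 11.98 in their GFP- cells. In vehicle mice it read 4.19, 4.91, 3.94 and 6.70 in GFP+ cells, against 12.01, 11.95, 11.49 and 12.29 in GFP- cells. No GFP+ array exceeded background (0 of 8), whereas all GFP- arrays were far above it. Olfr677 was therefore at least 43.5-fold lower in GFP+ cells with odorant (difference -7.50, SE 0.27, limma adjusted p = 3.01e-08) and at least 39-fold lower with vehicle (-7.00, SE 0.50, limma adjusted p = 6.14e-06).

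Olfr69 and Olfr68 are neighbours on one side of the beta-globin genes, and both were lower in GFP+ cells. Olfr69 read 7.90, 7.75, 6.56 and 6.79 in GFP+ and 13.47, 12.83, 13.46 and 12.03 in GFP- cells with odorant, and 6.66, 7.67, 7.16 and 7.10 in GFP+ and 13.42, 13.05, 12.40 and 12.93 in GFP- cells with vehicle. It was 51.9-fold lower with odorant (difference -5.70, SE 0.38, limma adjusted p = 2e-06) and 55.7-fold lower with vehicle (-5.80, SE 0.25, limma adjusted p = 2.06e-07). These folds rest on GFP+ signals close to background, which 3 of 4 GFP+ arrays exceeded with odorant and 4 of 4 with vehicle. Olfr68 read 5.72 to 7.36 in GFP+ and 11.28 to 12.34 in GFP- cells with odorant, and 6.39 to 7.62 in GFP+ and 11.07 to 12.12 in GFP- cells with vehicle. It was at least 25.9-fold lower with odorant and 25-fold lower with vehicle. For both receptors the lowest GFP- array stood more than 3 log2 units over the highest GFP+ array.

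Olfr681 and Olfr672 differed from Olfr677 in that they stayed above background in GFP+ cells. Olfr681 read 8.14, 10.40, 7.94 and 7.48 in GFP+ and 12.90, 13.24, 13.31 and 12.78 in GFP- cells with odorant, and 8.37, 9.59, 8.81 and 8.01 in GFP+ and 13.40, 13.24, 12.76 and 12.78 in GFP- cells with vehicle. It was 23.7-fold lower with odorant and 20.4-fold lower with vehicle. Olfr672 averaged 9.95 ± 1.0 in GFP+ and 13.94 ± 0.55 in GFP- cells of odorant-exposed mice, and 10.15 ± 0.59 in GFP+ and 14.08 ± 0.26 in GFP- cells with vehicle (SD, n = 4 each), folds of 15.9 and 15.2. In both, the GFP+ arrays of odorant-exposed mice were the most widely spread of the 4 groups.

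Of the 16 lower receptors, 8 had no GFP+ array above background in either treatment, namely Olfr600, Olfr611, Olfr629, Olfr632, Olfr671, Olfr677, Olfr684 and Olfr686. Olfr611 read 5.49, 6.76, 4.78 and 5.87 in GFP+ and 10.59, 10.61, 10.54 and 10.40 in GFP- cells with odorant, and 5.29, 6.49, 5.24 and 5.22 in GFP+ and 10.79, 11.33, 10.51 and 9.75 in GFP- cells with vehicle. It was at least 13.6-fold lower with odorant and at least 15.4-fold lower with vehicle. Olfr629, shown above, read 3.53, 4.01, 4.89 and 4.42 in GFP+ and 9.06, 8.53, 9.56 and 8.61 in GFP- cells with odorant, and 4.52, 3.44, 4.65 and 4.28 in GFP+ and 9.03, 9.22, 8.58 and 9.13 in GFP- cells with vehicle. Its bounds were 4.51-fold and 5.06-fold, smaller than those of Olfr611 because its GFP- signal was nearer to background, although its differences of -4.73 and -4.77 were about as large. Olfr686, Olfr632 and Olfr600 had bounds of 4.17, 7.19 and 3.02 with odorant and 4.79, 6.29 and 2.84 with vehicle. The 6 other receptors of the lower set had differences of -2.83 to -1.34 with odorant and -2.60 to -0.90 with vehicle, and the weakest of them was Olfr586, with a limma adjusted p of 0.0492 with vehicle.

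Olfr655 varied most between arrays of 1 group among the receptors above background throughout. It read 10.56, 11.87, 10.30 and 8.40 in GFP+ and 13.35, 12.42, 13.32 and 12.43 in GFP- cells with odorant, and 11.09, 11.25, 11.10 and 8.03 in GFP+ and 13.08, 12.73, 12.72 and 12.61 in GFP- cells with vehicle. The GFP+ array of the pool numbered 4 was the lowest in each treatment, while the GFP- arrays of those pools, at 12.43 and 12.61, stood beside the others of their group. Olfr655 was lower in GFP+ cells by 2.60 with odorant (SE 0.58, limma adjusted p = 0.0127) and by 2.42 with vehicle (SE 0.61, limma adjusted p = 0.0195). The call was lost with vehicle when replicate 1 or 3 was left out (adjusted p = 0.0643 and 0.0572) and with odorant when replicate 1 or 3 was left out (adjusted p = 0.0763 and 0.084).

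Olfr578 was called with odorant alone. It read 9.21, 9.27, 9.85 and 9.58 in GFP+ and 8.12, 7.53, 7.93 and 7.47 in GFP- cells with odorant, and 10.10, 8.10, 9.96 and 11.05 in GFP+ and 9.14, 7.10, 9.12 and 9.01 in GFP- cells with vehicle. In the vehicle pool numbered 2 both fractions were about 2 log2 units under their groups, and GFP+ cells were higher in each pool. The vehicle difference of 1.21 had a limma adjusted p of 0.212, which was 0.0096 with the pool as a replicate block and 0.0202 without vehicle replicate 2. The odorant difference was 1.71 (SE 0.20, limma adjusted p = 0.000162).

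**Figure D3:**
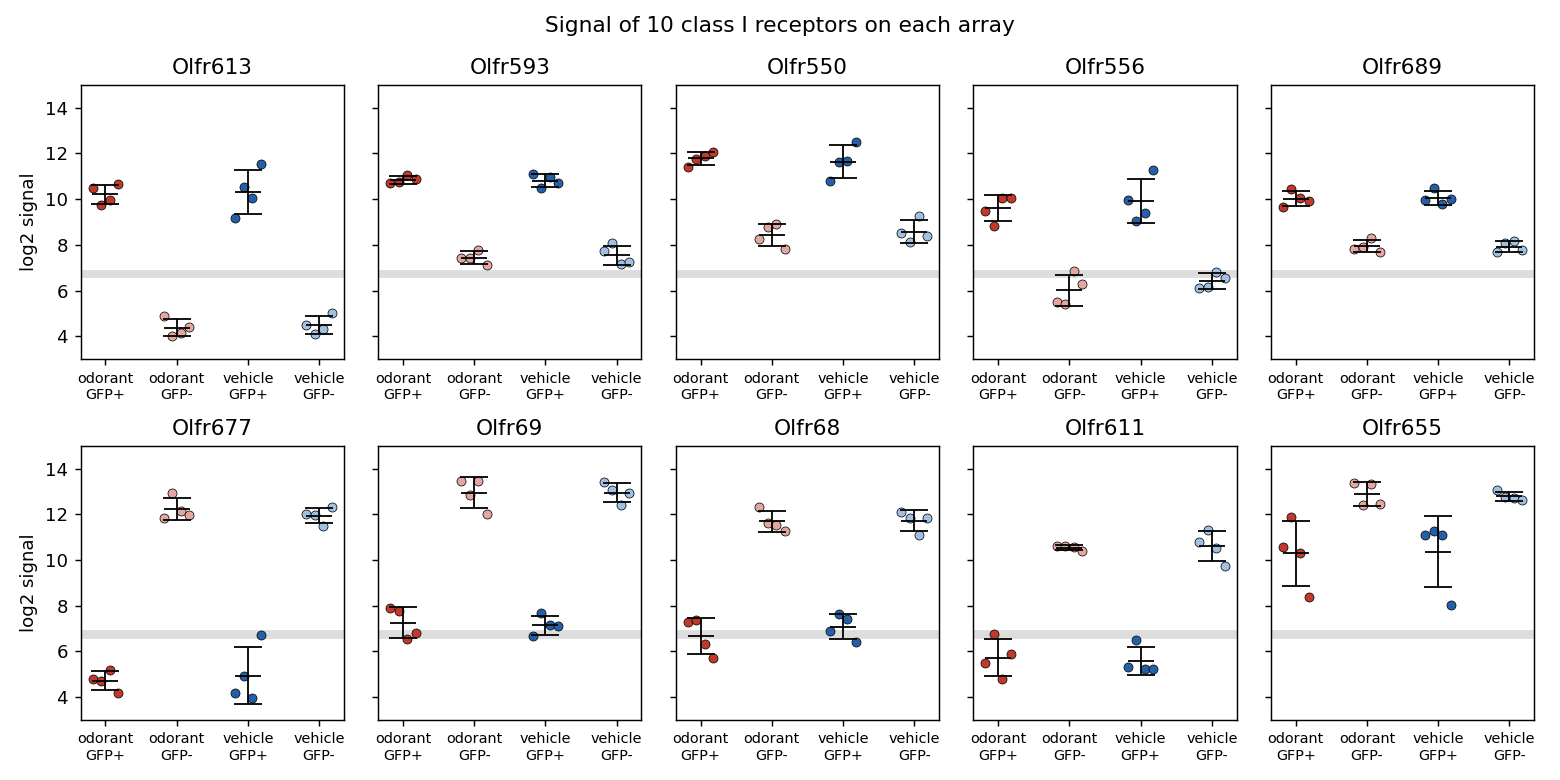
Log2 signal of 10 class I receptors on each of the 16 arrays, with points for the 4 arrays of a group (replicates 1 to 4, left to right), bars for the mean ± SD and a grey band for the background levels of the arrays, 6.57 to 6.87. Olfr613 is above the band in all GFP+ and below it in all GFP- arrays and Olfr677 is above it in all GFP- arrays and below it in the GFP+ arrays, except replicate 4 of vehicle, which lies within it at 6.70; the last GFP+ point of Olfr655 is the low one in both treatments, at 8.40 and 8.03.

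GFP- cells also held more transcript of cell types other than mature neurons. The mean level of 7 genes of immature olfactory neurons, such as Gap43, was 10.58 to 10.80 per array in GFP+ and 12.74 to 13.34 in GFP- cells with odorant, and 10.54 to 10.95 in GFP+ and 13.01 to 13.37 in GFP- cells with vehicle. Of these, 4 were called lower with odorant and 5 with vehicle, and Gng8 and Nhlh1 were at background in GFP+ cells. The 4 immune genes were all called lower in both treatments, with array means of 6.27 to 6.82 in GFP+ and 11.57 to 13.08 in GFP- cells with odorant, and of 6.36 to 6.76 in GFP+ and 11.76 to 13.37 in GFP- cells with vehicle, and Cd52, Ptprc and S100a9 were at background in GFP+ cells. All 4 microvillar and tuft cell genes and all 3 globose basal and dividing cell genes were called lower in both treatments, as were 2 of 3 Bowman gland genes, and of 5 sustentacular genes 2 were called with odorant and 5 with vehicle. Among these genes Neurog1, of globose basal cells, was at background in both fractions of both treatments. Mki67, Top2a, Ascl3, Cftr, Trpm5, Aqp5, Sox9 and Sox2 exceeded background on no GFP+ array of either treatment. Foxi1 and Ermn were at background in GFP+ cells by their means, 6.31 and 6.12 with odorant and 6.35 and 5.99 with vehicle. Alas2, a gene of red blood cell precursors, was called lower in both and was at background in GFP+ cells, at 6.33 with odorant and 6.39 with vehicle. Of the 6 mature neuron genes, 0 were called lower and 1, Adcy3, was called higher with vehicle, with array means of 17.30 to 17.63 over all groups. The part of these cells in the differences of the receptors was not tested.

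Genes that act in receptor expression were measured alongside. Of 8 genes of receptor choice, such as the transcription factors Lhx2 and Ebf1, 0 were called with odorant and 3 were called higher in GFP+ cells with vehicle, where Emx2 differed by 0.48, Ebf1 by 0.44 and Adcy3 by 0.41. The 3 genes of receptor export to the membrane, Rtp1, Rtp2 and Reep1, gave 0 calls in either treatment. Of 6 transduction genes, 1 was called higher in both, the chloride channel gene Ano2. It differed by 0.48 with odorant (limma adjusted p = 0.0492) and by 0.57 with vehicle (limma adjusted p = 0.0148). Cngb1, another of the 6, was at background on all arrays. Ncam2 and Nrp2, which mark the ventral zone rather than the dorsal zone of class I neurons, were higher in GFP+ cells with vehicle, by 0.52 and 0.69, and gave no call with odorant (0 of 2). Whether the differences of these genes bear on those of the receptors was not tested.

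Class I receptors were set beside the other odorant receptors. Of the 119, 31.9% were called higher and 15.1% lower with odorant, and 31.9% and 16.8% with vehicle. Of the 112 other receptors of chromosome 7, 43.8% were called higher and 17% lower with odorant, and 45.5% and 17.9% with vehicle. Of all 962 other receptors, 34.3% and 25.6% were called with odorant and 35.4% and 26.5% with vehicle. The share called in the same direction in both treatments was 22.7% higher and 13.4% lower for class I, 42.9% and 16.1% for the others on chromosome 7 and 31.8% and 24% for all others. These shares are descriptions, and whether class I receptors differ from other receptors was not tested.

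**Figure D4:**
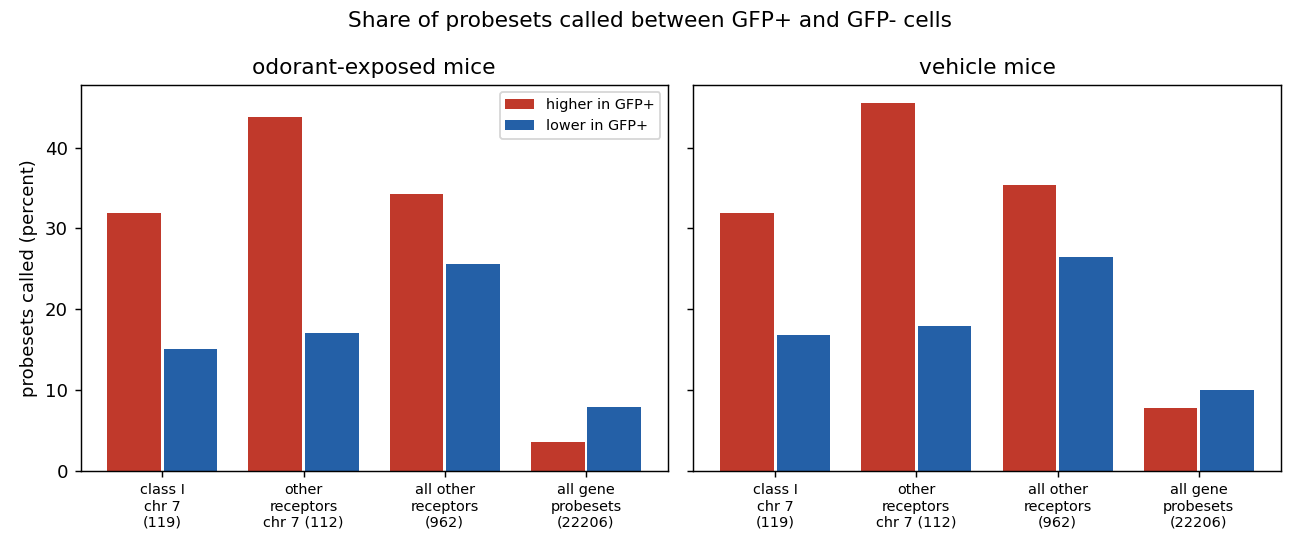
Percent of probesets called higher (red) or lower (blue) in GFP+ cells by limma at an adjusted p under 0.05, in odorant-exposed mice (left) and vehicle mice (right), for the 119 class I receptors, 112 other receptors of chromosome 7, all 962 other receptors and all 22206 gene probesets. The class I bars stand at 31.9% and 15.1% with odorant and at 31.9% and 16.8% with vehicle.

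Receptors next to each other in the order along the chromosome were called in the same or in opposite directions. The shared calls were 27 higher and 16 lower, so that pairs of the same direction are frequent in a random order too. Of 118 pairs of adjacent class I genes, 16 had both members among the shared calls, of which 8 were higher together, 2 lower together and 6 opposed. The opposed pairs were Olfr611 with Olfr612, Olfr632 with Olfr633, Olfr651 with Olfr652, Olfr654 with Olfr655, Olfr681 with Olfr683 and Olfr683 with Olfr684. Olfr612, at 9.65 ± 0.49 in GFP+ and 7.21 ± 0.55 in GFP- cells of odorant-exposed mice and 9.17 ± 0.17 in GFP+ and 7.58 ± 0.52 in GFP- cells of vehicle mice (SD, n = 4 each), stands between Olfr611, which exceeded background on no GFP+ array, and Olfr613, which exceeded it on no GFP- array. From Olfr612 to Olfr620, 8 receptors in a row had a positive difference in both treatments, as did 9 from Olfr556 to Olfr568, and 9 in a row from Olfr594 to Olfr605 had a negative one. These runs count signs only and include receptors that were not called. Olfr564, Olfr568 and Olfr619 in them were at background on all arrays. Whether such pairs and runs depart from a random order was not tested. Probes of near-identical receptor genes can share signal, which these files do not resolve.

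Around the beta-globin genes, Olfr67 is the nearest class I gene on one side and Olfr66 on the other. Olfr67 read 10.74, 10.99, 10.22 and 10.89 in GFP+ and 9.71, 9.14, 11.01 and 9.54 in GFP- cells with odorant, and 10.58, 10.89, 10.54 and 11.71 in GFP+ and 9.80, 9.12, 10.01 and 9.43 in GFP- cells with vehicle. It was 2.54-fold higher in GFP+ cells with vehicle (limma adjusted p = 0.0074), where the fractions did not overlap, and with odorant it differed by 0.86 (limma adjusted p = 0.174). The odorant difference was 1.41 without odorant replicate 3 (limma adjusted p = 0.00228) and 0.53 without replicate 2 (limma adjusted p = 0.501). Olfr66 differed by 0.94 with odorant (limma adjusted p = 0.09) and was called higher with vehicle, by 1.20 (limma adjusted p = 0.00921), but only 2 of its 16 arrays exceeded background. The vehicle call was lost without vehicle replicate 1 (limma adjusted p = 0.067), and the odorant difference passed without odorant replicate 3 (limma adjusted p = 0.0235). Olfr65 differed by -0.39 with odorant and -0.23 with vehicle, and Olfr64 by 0.45 and 0.13, and limma called neither. Thus Olfr69 and Olfr68 were lower in GFP+ cells in both treatments, while their neighbour Olfr67 was called higher with vehicle.

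Olfr544, Olfr545 and Olfr558 were picked by rule for their described ligands, and limma called none of them between the fractions (0 of 3 in each treatment). The other class I receptors were not searched for known ligands. Olfr544, a receptor for azelaic acid, read 7.68, 9.44, 8.34 and 8.14 in GFP+ and 7.27, 8.13, 9.12 and 7.56 in GFP- cells with odorant, and 8.99, 8.34, 8.13 and 8.50 in GFP+ and 7.38, 7.12, 7.86 and 8.29 in GFP- cells with vehicle. Its difference was 0.38 (95% interval -0.57 to 1.33) with odorant and 0.83 (0.23 to 1.42, limma adjusted p = 0.0591) with vehicle. The vehicle difference passed under 5 of the alternatives, with an adjusted p of 0.00564 when array medians were subtracted and 0.0382 without vehicle replicate 4, and did not pass without replicate 1, 2 or 3. Olfr545 differed by -0.73 (-1.39 to -0.06, limma adjusted p = 0.178) with odorant and -0.59 (-1.14 to -0.05, limma adjusted p = 0.132) with vehicle. Olfr558, whose human ortholog OR51E1 responds to short-chain fatty acids, exceeded background on 2 GFP+ and 0 GFP- arrays with odorant and on 3 GFP+ and 1 GFP- array with vehicle, with differences of 0.44 and 0.41 that did not pass.

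The next question was whether the odorant changed which class I receptors stood out in GFP+ cells, as it would for a receptor of neurons that the odorant drives to make GFP. Limma called 0 of the 119 between odorant and vehicle GFP+ cells, where 0% of all gene probesets were called. At an unadjusted p under 0.05 there were 4 receptors, 1 higher and 3 lower, against 3.82% of all gene probesets. Among the 91 receptors above background on at least 1 GFP+ array, 45 were higher and 46 lower with odorant, and none (0) differed by more than 1 log2 unit. The upper 95% bound of the difference was below 1 for 74 of them and below 2 for all 91, with the highest at 1.69 for Olfr655.

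Olfr649, Olfr599 and Olfr574 had the smallest p in GFP+ cells. Olfr649 read 7.18, 7.37, 7.46 and 7.59 with odorant and 8.43, 7.80, 8.42 and 8.54 with vehicle, so that the arrays did not overlap (difference -0.90, SE 0.18, limma adjusted p = 0.999). In GFP- cells it was at background, at 4.88 to 5.61 with odorant and 5.62 to 6.43 with vehicle, again without overlap. Olfr599 read 7.63, 9.64, 9.20 and 9.23 with odorant and 9.85, 9.68, 9.30 and 10.51 with vehicle, which overlap (difference -0.91, SE 0.40, limma adjusted p = 0.999). Olfr574, with a difference of 0.37, was at background in both groups. The arrays of odorant and vehicle GFP+ cells failed to overlap for 2 receptors, Olfr649 and Olfr574, against 2.3% of all gene probesets.

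**Figure D5:**
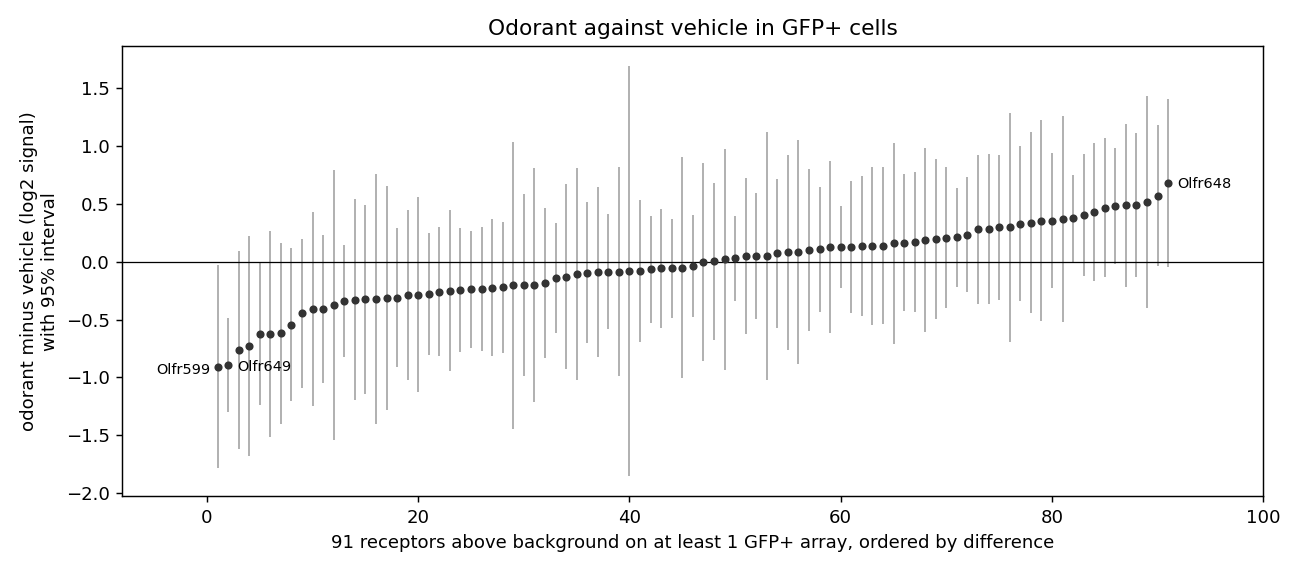
Difference in log2 signal between odorant and vehicle GFP+ cells, with its 95% interval from limma, for the 91 class I receptors above background on at least 1 GFP+ array, ordered by difference; each group has 4 arrays. Olfr599 and Olfr649 are lowest at -0.91 and -0.90 and Olfr648 is highest at 0.68.

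In GFP- cells limma again called 0 of the 119 between odorant and vehicle (0% of all gene probesets), with 8 at an unadjusted p under 0.05, 1 higher and 7 lower, against 6.84% of all gene probesets. Olfr619, Olfr649 and Olfr663 had the smallest p, and all 3 were at background in GFP- cells of both treatments. The lowest adjusted p of a receptor was 0.708. Groups of arrays did not overlap for 5 receptors, 1 higher and 4 lower, against 4.16% of all gene probesets.

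The interaction, the GFP+ minus GFP- difference with odorant less that with vehicle, asked whether the sort difference changed with the odorant. Limma called 0 of the 119 (0% of all gene probesets), and 4 had an unadjusted p under 0.05, all higher, against 4.92% of all gene probesets. Olfr617, which is above background on every array, read 9.88, 10.55, 10.50 and 10.11 in GFP+ and 8.62, 8.26, 8.92 and 8.48 in GFP- cells with odorant, and 10.16, 10.12, 9.57 and 8.91 in GFP+ and 9.32, 8.93, 8.80 and 8.79 in GFP- cells with vehicle. Its fractions did not overlap with odorant and overlapped with vehicle, and the interaction was 0.96 (95% interval 0.22 to 1.70, limma adjusted p = 0.962). Olfr648 had an interaction of 1.26 (0.25 to 2.27) and Olfr619, at background on all arrays, one of 1.34 (0.44 to 2.24), with the same adjusted p. The odorant-alone and vehicle-alone calls between the fractions were therefore not shown to differ between the treatments.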

How the data were processed

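The deposited values are log2 signals of probesets; the submitters' processing notes name Affymetrix Expression Console, and no version, background correction or normalization is given in the sources used here. They entered all fits without further scaling. Of 28846 probesets, 6640 controls were left out, and 19572 of the other 22206 carried a gene symbol. Each of 4 comparisons was fitted on its own 8 arrays with limma 3.58.1 (lmFit, eBayes, two-sided) in R 4.3.3, and the interaction on all 16, with p-values adjusted by Benjamini-Hochberg over 22206 probesets and a threshold of 0.05. A group was called at background when none of its arrays exceeded the 95th percentile of the controls or its mean did not exceed their mean level; a fold against it is a lower bound, with lower signals raised to the background level, and none is given where both groups were there. Precision is limited by the number of arrays, and levels of different probesets were not compared.

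The members, gene lists and rules were chosen with earlier results of these data known. Named receptors were the 10 higher and 10 lower with the largest smaller difference among those called in both treatments, the 3 with the smallest p in each odorant comparison, 9 with described ligands or beside the globin genes, and the 3 most variable above background; a rule on protein identity was not applied, for want of the sequences. Other receptors named were chosen after their values were seen. Lhx2 and Adcy3 are each in 2 lists. Both fractions of a treatment and replicate number were paired by the count of mice (24 mice, 3 per pool, 8 pools); their deviations from group means correlated across genes with r of 0.0136 to 0.356 with odorant and 0.113 to 0.156 with vehicle. Alternatives were quantile normalization, subtraction of array medians, a filter on dim probesets, a replicate block, an intensity trend and leaving out each replicate. The fits were tested on simulated data. Promoter windows are RefSeq's for GRCm38.p6. Plots were drawn with matplotlib 3.10.9.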

Additional observations from a re-analysis of the deposited data

Results flagged for a closer look

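In 9 of the 144 groups of 4 arrays checked for the 36 receptors named by rule, 1 array stood apart from the other 3 by Dixon's criterion. Chance alone marks about 1 group in 20 where receptors are not picked for their spread. Olfr655, Olfr578 and Olfr681 were picked for it, so that this rate does not apply to them. In GFP+ cells of odorant-exposed mice, Olfr633 read 10.56 on replicate 3, against 9.43 to 9.62 on the others. In GFP+ cells of vehicle mice, Olfr571 read 10.78 on replicate 4, against 9.42 to 9.60, and Olfr655 read 8.03 on replicate 4, against 11.09 to 11.25. On replicate 2 of the same group Olfr611 read 6.49, against 5.22 to 5.29, Olfr672 read 11.03, against 9.76 to 9.93, and Olfr649 read 7.80, against 8.42 to 8.54. In GFP- cells of odorant-exposed mice, Olfr632 read 8.58 on replicate 4, against 9.88 to 10.10, and Olfr599 read 10.29 on replicate 3, against 9.51 to 9.57. In GFP- cells of vehicle mice, Olfr578 read 7.10 on replicate 2, against 9.01 to 9.14.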

How the results depend on the processing

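With array medians subtracted, the higher calls were 60 with odorant and 60 with vehicle, and 66 receptors were called in both, 51 of them higher; the other counts stayed within 1.5 times under the alternatives run, and those between odorant and vehicle and of the interaction stayed at 0. Without single replicates the calls numbered 49 to 54 with odorant (30 to 38 higher, 15 to 20 lower), 51 to 56 with vehicle (31 to 37 higher, 17 to 20 lower) and 40 to 44 in both (24 to 30 higher, 14 to 16 lower). With the pool as a replicate block they were 61 with odorant, 66 with vehicle and 52 in both; of the 43 shared calls 42 were kept, Olfr586 was lost, as it was with array medians subtracted, and 10 receptors were gained, and apart from Olfr578 no receptor named by rule changed its call. Olfr655 also lost its vehicle call with an intensity trend (adjusted p = 0.0524), and the filter on dim probesets dropped Olfr557 and Olfr575 from the shared calls. With array medians subtracted, Olfr66 and Olfr67 were also called with odorant (adjusted p = 0.0148 and 0.0249) and Olfr578 with vehicle (0.0498). Signs turned for 3 receptors that were not called with vehicle: without single replicates Olfr558 ranged from -0.0556 (without vehicle replicate 4) to 0.75, Olfr64 from -0.12 (without 4; -0.0474 without 1) to 0.346 and Olfr65 from -0.486 to 0.0185 (without 3), and Olfr65 was at 0.136 with medians subtracted. The causes were not tested. Signals at background limit the smaller differences.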

Other observations

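The pools numbered 4 of both treatments held little transcript of the Y-linked gene Eif2s3y, at 2.64 to 3.41 log2 signal, against 9.95 to 11.2 on the 12 other arrays, and Olfr655 was low in their GFP+ cells. Olfr655 averaged 8.21 on those 2 GFP+ arrays, against 11.03 on the other 6. In GFP+ cells 4 receptors had both of these arrays below all others (3.36%, against 3.97% of all gene probesets) and 6 above (5.04%, against 4.94%). In GFP- cells 14 receptors had them below all others (11.8%, against 3.27%) and 2 above (1.68%, against 5.29%). These values were noticed after the data were seen, and nothing was tested.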
